A study of Rattus norvegicus with 6 samples.

Results

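The genes of TGF-beta, BMP and activin signalling were taken as 42 named genes of the 33508 in the count table, chosen by symbol and not by their values. They comprised 8 ligands, 4 latent TGF-beta binding proteins, 9 receptors, 7 Smads, 5 secreted antagonists, 5 ubiquitin ligases and corepressors and 4 Id genes. All 42 were found, and 38 had enough counts for the test. The remaining 4, Tgfb2, Bmp4, Nog and Id4, are described by their counts.

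RNA-seq was performed on rat bone marrow mesenchymal stem cells (BMSCs), adherent stromal cells that can form bone, cartilage and fat. BMSCs-OE-FNDC5 (3 libraries) carried a lentivirus for Fndc5, a membrane protein whose released part is irisin, and BMSCs-OE-NC (3 libraries) carried a blank lentivirus. By the study's methods, the cells came from 2-month-old male Sprague–Dawley rats and were exposed to virus for 72 h (multiplicity of infection 10). Both groups had then been kept without glucose and serum for 24 h in 1% O2, 94% N2 and 5% CO2 (H/SD), so that every library came from injured cells and no uninjured group entered the comparison. The vector's promoter, and whether the libraries of 1 group stem from different rats, cultures or transductions, are not given in the sources used here. The p-values therefore measure only the spread between these libraries, which may be technical. In bulk RNA, fewer cells of a type and less RNA per cell cannot be told apart.

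Ligands of this family are secreted dimers. TGF-beta is stored outside the cell bound to latent binding proteins, and soluble antagonists such as gremlin and follistatin hold back BMPs and activins. A ligand joins type I and type II receptor kinases, which phosphorylate Smad2 and Smad3 for TGF-beta and activin, or Smad1 and Smad5 for BMP. These pair with Smad4 and enter the nucleus, where the Id genes are classic BMP targets. Smad6 and Smad7 restrain the signal mainly at the receptors, and Ski and Skil in the nucleus. In BMSCs the BMP branch is known for bone formation, and the TGF-beta branch for matrix production.

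Fndc5 itself was checked first. It had 22, 17 and 25 counts in BMSCs-OE-NC and 65589, 64672 and 64195 in BMSCs-OE-FNDC5, which matched the labels. Total counts ranged from 17430287 to 17965722 per library in BMSCs-OE-NC, and from 16640635 to 17229490 in BMSCs-OE-FNDC5. Values below are CPM, counts scaled to a common library size by TMM, which assumes that most genes do not change, or FPKM, which also divides by gene length. Of 9 markers of mesenchymal stromal cells, 8 were tested, of which Thy1 and Cd44 were higher and 6 were lower, against 36.9% and 38.8% of all genes. Col1a1, the most abundant of them, had a log2 fold change of -0.34 with TMM scaling but 0.38 with the length offset described below. Cd44 was at 0.04 with scaling by total counts only and was not called. Nt5e, Itgb1, Pdgfrb, Vcam1 and Cxcl12 stayed lower, and Thy1 higher, in both of these fits. The summed level of the stromal markers went from 6466 to 6521 CPM in BMSCs-OE-NC to 4411 to 4458 CPM in BMSCs-OE-FNDC5. Haematopoietic markers summed to 98.1 to 104 CPM and 198 to 206 CPM in the same order, nearly all of it Cd14, whereas Ptprc and Adgre1 were at 0 in all 6 libraries. Endothelial markers summed to at most 0.546 CPM in any library, and markers of retina and neurons to at most 0.303 CPM. The part of these shifts in the results for the signalling genes was not tested.

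Most of the signalling genes were lower in BMSCs-OE-FNDC5. With edgeR's quasi-likelihood test and an adjusted p under 0.05, 28 of the 38 tested (73.7%) were lower, against 38.8% of all 12104 genes tested. There were 7 members higher (18.4%), against 36.9% of all genes. With scaling by total counts only, 2 members were higher and 30 lower, against 22% and 55.4% of all genes. Past a 2-fold change, 12 members were lower (31.6%) against 17.5% of all genes, and 1 was higher (2.63%) against 9.84%. The values of the groups did not overlap for 35 of 38 members (92.1%), against 78.3% of all genes. The median log2 fold change was -0.81 over the members tested and -0.04 over all genes.

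Gene length moved with these values. Log2 fold change and gene length had a Spearman's correlation of -0.44 across all genes, which are no independent replicates, and the median length was 3020.5 bases for the tested members and 2262 bases for all tested genes. With the length trend of every library entered as an offset in the fit (the length offset), 26 members were lower and 8 higher, against 33.5% and 38.2% of all genes. In that fit 8 were lower by more than 2-fold, against 12.3% of all genes, none was higher by that much, and the members' median was -0.46 against 0.03 over all genes. Scaling by total counts only lowered the median of all genes by 0.37 on the log2 scale, and that of the members was then -1.18, with 22 of them lower by more than 2-fold against 27.6% of all genes. The part of gene length in the result was not tested.

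**Figure D1:**
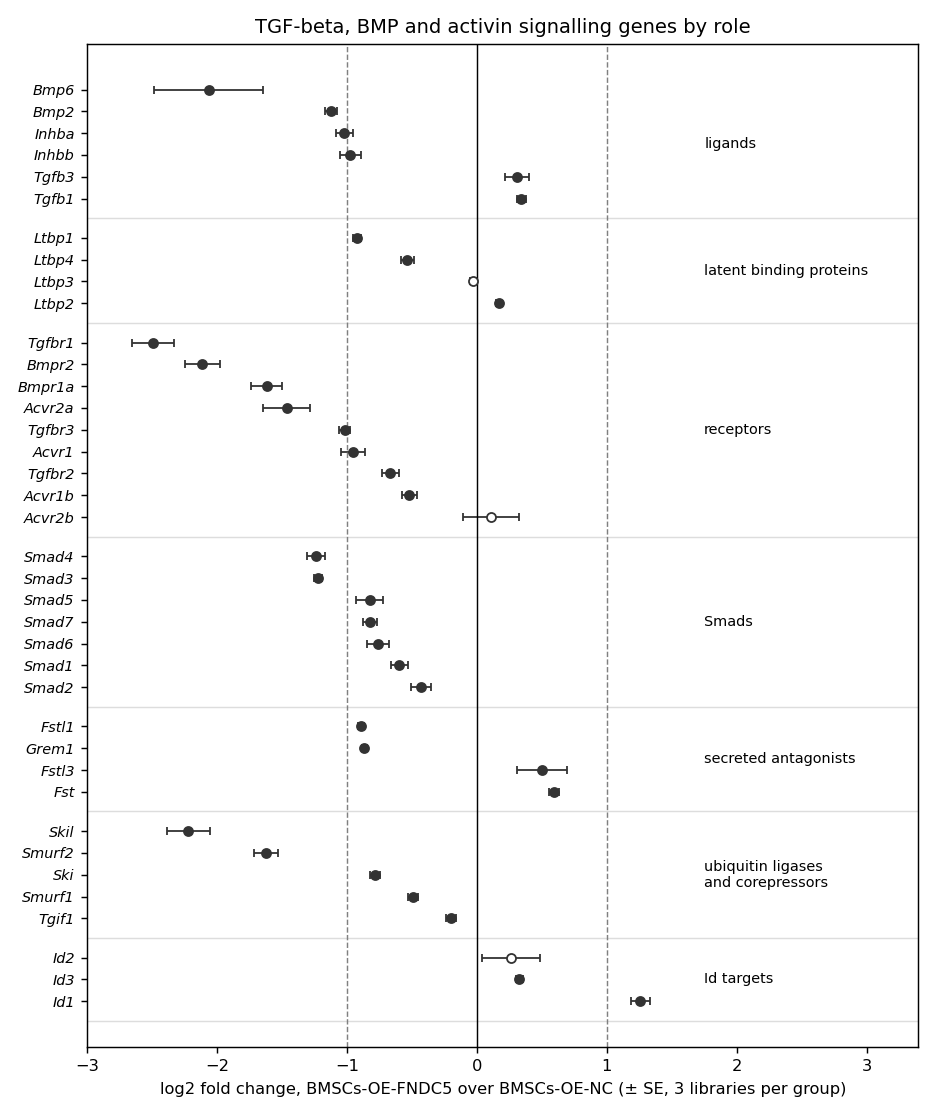
Log2 fold changes (BMSCs-OE-FNDC5 relative to BMSCs-OE-NC) of the 38 tested genes grouped by role, with bars of 1 SE, 3 libraries per group, TMM scaling. Filled circles had an adjusted p under 0.05, open circles had a larger one, and dashed lines mark a 2-fold change. Tgfbr1 lies lowest at -2.50 and Id1 highest at 1.26.

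Among the classic targets within the group, Id1 was higher and the feedback inhibitors Smad7 and Skil were lower. The sequence just before their starts is shown here. Sites more than 250 bases before a start, or after it, were not searched. The sequences are the 150 bases before the start of transcription in RefSeq (rat build GRCr8), with matches to the Smad box GTCT or its complement AGAC, and to the BMP-type site GGCGCC, in capitals. Id1 (chr3:161671414-161671563, plus strand) was higher, and Id3 (chr5:153656141-153656290, plus strand) was higher with TMM scaling but lower with the length offset and not called with total counts only. Smad7 (chr18:71263358-71263507, plus strand) and Skil (chr2:114203573-114203722, minus strand) were lower.
Id1: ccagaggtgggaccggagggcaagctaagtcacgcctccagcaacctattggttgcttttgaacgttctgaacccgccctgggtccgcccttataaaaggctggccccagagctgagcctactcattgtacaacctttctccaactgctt
Id3: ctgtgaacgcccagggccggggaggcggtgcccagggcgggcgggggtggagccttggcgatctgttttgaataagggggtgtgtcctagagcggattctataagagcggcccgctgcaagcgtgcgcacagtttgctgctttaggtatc
Smad7: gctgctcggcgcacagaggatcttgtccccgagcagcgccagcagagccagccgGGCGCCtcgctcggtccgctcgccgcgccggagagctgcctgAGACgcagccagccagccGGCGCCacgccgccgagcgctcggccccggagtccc
Skil: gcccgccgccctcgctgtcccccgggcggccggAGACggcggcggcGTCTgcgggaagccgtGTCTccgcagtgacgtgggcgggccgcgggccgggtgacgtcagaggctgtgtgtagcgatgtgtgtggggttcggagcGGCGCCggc
The Id1 and Id3 windows held neither motif, although over 250 bases Id1 had 1 Smad box. The Smad7 window held 1 Smad box and 2 GGCGCC sites, and the Skil window held 3 and 1. Over those 250 bases, Id1, Id3 and Smad7 each had 2 GC boxes (GGGCGG on either strand, the kind of site that Sp1 binds), and Skil had 4.

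Over the 250 bases before the start, RefSeq gave 37 promoters for 36 of the 42 members. GTCT on either strand was found in 25 of these (67.6%) against 84% of all 33469 rat promoters, and GGCGCC in 10 (27%) against 8.69%. GTCTAGAC, which contains GTCT and its complement, was in none of the 37 and in 0.173% of all promoters. GGGCGG was in 27 (73%) against 30.5%. Median GC content was 66.4% in the members' promoters and 51.2% in all of them, so that motifs made of G and C would also match more often. A match describes letters only.

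With TMM scaling, the tested ligands split between TGF-beta genes that were higher and BMP and activin genes that were lower. Of 6 tested, Bmp2, Bmp6, Inhba and Inhbb were lower (66.7%, against 38.8% of all genes). Tgfb1 and Tgfb3 were higher with TMM scaling (33.3%, against 36.9%), though not with scaling by total counts only (-0.03 and -0.06).

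Tgfb1, the main TGF-beta ligand, had the highest FPKM of the ligands, at 77.3 ± 1.39 (SD, n = 3) in BMSCs-OE-NC and 99.7 ± 3.56 (n = 3) in BMSCs-OE-FNDC5. Its CPM was 166, 166 and 172 in BMSCs-OE-NC and 210.2, 222 and 207 in BMSCs-OE-FNDC5, and the log2 fold change was 0.34 ± 0.03 (SE, adjusted p = 3.8e-06). The groups were well apart, and the difference was small. Tgfb3, a second TGF-beta isoform, was at 13.0 ± 0.294 CPM and 16.1 ± 0.466 CPM in the same order (n = 3 each).

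Bmp2, a strong inducer of bone formation, was the other way. Its CPM was 73.6, 73.7 and 72.2 in BMSCs-OE-NC and 34.7, 32.3 and 33.6 in BMSCs-OE-FNDC5, with a log2 fold change of -1.13 ± 0.04 (adjusted p = 1.42e-09). Every BMSCs-OE-NC library held more than 2 times the CPM of every BMSCs-OE-FNDC5 library. With the length offset Bmp2 was at -0.82, inside a 2-fold change. Bmp6, a related ligand, had 2.16, 1.40 and 1.82 CPM against 0.728, 0.273 and 0.265 CPM, a log2 fold change of -2.06 ± 0.42 (adjusted p = 0.000926). These are low levels, and the SE was the widest among the members.

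Inhba encodes the subunit of activin A. It was at 95.7, 109 and 106 CPM in BMSCs-OE-NC and 49.7, 55.2 and 48.6 CPM in BMSCs-OE-FNDC5, with a log2 fold change of -1.02 ± 0.06 (adjusted p = 4.89e-08). With the length offset Inhba was at -0.89, inside a 2-fold change. Inhbb, the subunit of activin B, came to 40.9 ± 2.54 and 20.8 ± 1.83 CPM (n = 3 each), just inside a 2-fold change. Both activin subunits were thus lower in every BMSCs-OE-FNDC5 library than in any BMSCs-OE-NC library.

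The make-up of the ligand RNA changed accordingly. Tgfb1 took 47.6 to 49.6% of the summed ligand FPKM in BMSCs-OE-NC, against 69.2 to 69.8% in BMSCs-OE-FNDC5. Inhba went from 23.9 to 26.3% down to 13.7 to 14.5%, and Bmp2 from 13.7 to 14.7% down to 6.79 to 7.64%. The summed FPKM of the ligands was 154.5 to 161.4 and 139.1 to 149.1, so that Tgfb1 made up most of a slightly smaller sum. Tgfb2 had 8, 10 and 8 counts in BMSCs-OE-NC and 0, 3 and 6 in BMSCs-OE-FNDC5, too few for the test. Bmp4 had 0 counts in all 6 libraries, which allows up to 0.147 to 0.205 CPM per library by the limit of 3 counts, for counting error only.

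**Figure D2:**
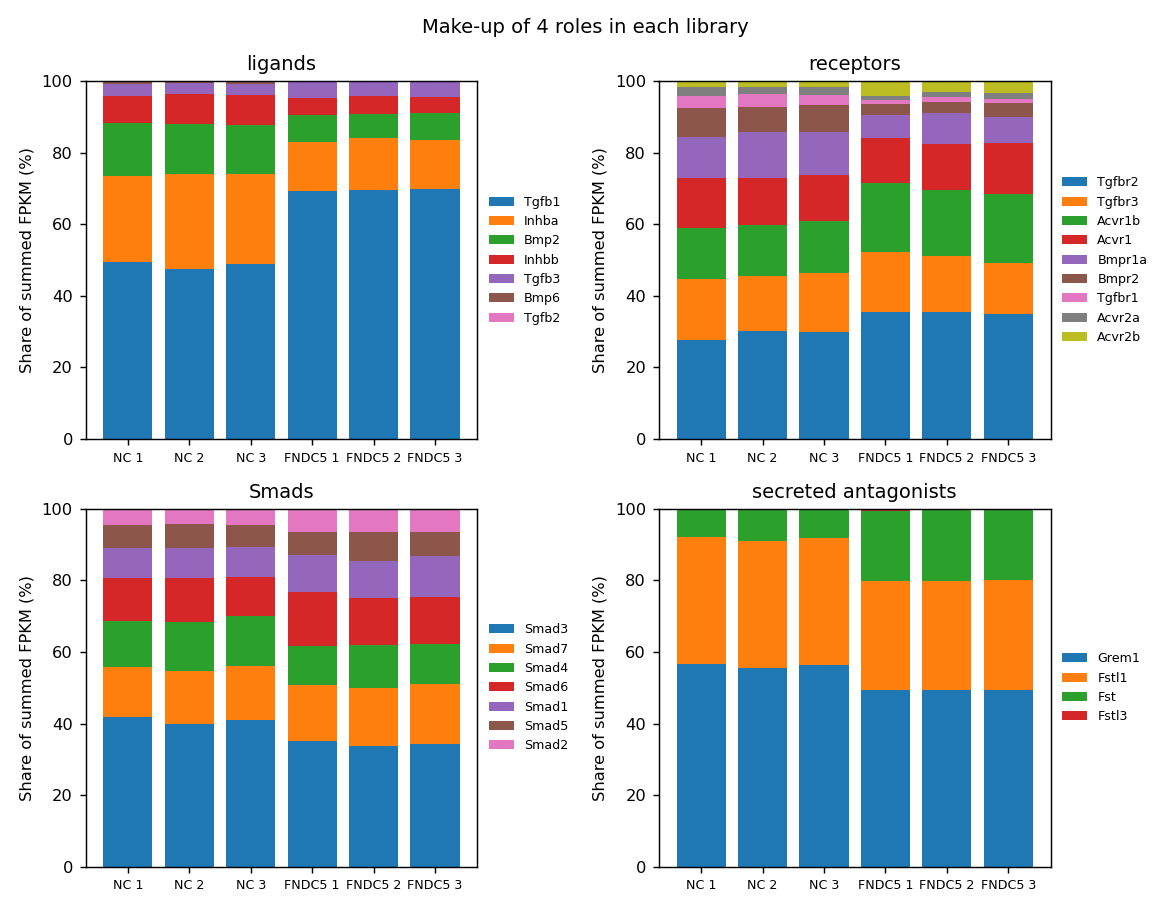
Share of the summed FPKM of a role (%, vertical axis) taken by each gene, in each of the 6 libraries, for ligands, receptors, Smads and secreted antagonists. Colours mark genes within a panel. Tgfb1 takes 47.6 to 49.6% of the ligands in BMSCs-OE-NC, against 69.2 to 69.8% in BMSCs-OE-FNDC5, and Fst goes from 7.81 to 8.66% up to 19.4 to 19.8% of the antagonists.

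The genes named as latent TGF-beta binding proteins had a median log2 fold change of -0.28. They were grouped by name, and whether each protein binds TGF-beta was not measured. Under TMM scaling, 1 of 4 was higher (25%, against 36.9% of all genes) and 2 were lower (50%, against 38.8%). Ltbp1 was lower at 239.8 ± 7.34 and 127 ± 1.67 CPM (n = 3 each), a log2 fold change of -0.92, which became -0.15 with the length offset. Ltbp4 was lower by 0.54 on the log2 scale, but higher by 0.13 with the length offset. These are among the longest transcripts of the group, at 6245 and 5338 bases.

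Ltbp2 was the most abundant of the 4 per length, at 212 ± 4.97 and 242 ± 1.44 FPKM. Its CPM was 1414, 1479 and 1438 in BMSCs-OE-NC and 1623, 1628 and 1608 in BMSCs-OE-FNDC5, and the log2 fold change was 0.17 ± 0.02 (adjusted p = 3.17e-05), which turned to -0.20 with scaling by total counts only and to 0.99 with the length offset. Ltbp3 had 624, 642 and 654 CPM against 627, 629 and 623 CPM, with overlapping groups and a log2 fold change of -0.03 ± 0.02 (adjusted p = 0.271). For Ltbp3 too the sign depended on the scaling, at -0.40 with total counts only and 0.50 with the length offset. The summed FPKM of the latent binding proteins was 406.4 to 419.4 in BMSCs-OE-NC, against 416.7 to 422.1 in BMSCs-OE-FNDC5, and these ranges overlap.

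Of the receptors, most were lower in BMSCs-OE-FNDC5. Of 9 tested, 8 were lower (88.9%, against 38.8% of all genes), and Acvr2b did not pass the test. By more than 2-fold, 5 were lower (55.6%, against 17.5%). The median log2 fold change was -1.02. The summed receptor FPKM was 70.2 to 76.4 in BMSCs-OE-NC, against 37.6 to 40.8 in BMSCs-OE-FNDC5.

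Tgfbr1, the type I receptor kinase for TGF-beta (chromosome 5, 63050758 to 63119635, plus strand, in the table's own unnamed build), had the lowest log2 fold change of the 38 with TMM scaling. Its CPM was 14.1, 16.2 and 12.8 in BMSCs-OE-NC and 2.12, 2.93 and 2.58 in BMSCs-OE-FNDC5, a 5.64-fold lower level and a log2 fold change of -2.50 ± 0.16 (adjusted p = 8.02e-08). With the length offset it was at -1.76, behind Bmp6 at -2.30 and Skil at -2.10. With log2(FPKM + 1) it was at -1.25, and the genes ahead of it included Bmpr2 at -1.51 and Skil at -1.40. Tgfbr2, its type II partner and the most abundant receptor per length, had 54.8, 64.9 and 62.5 CPM against 37.2, 37.8 and 39.7 CPM, a log2 fold change of -0.67 ± 0.07 (adjusted p = 2.99e-06). Both groups of values were apart for each gene, and whether the 2 changes differed was not tested. Tgfbr1 went from 2.93 to 3.56% of the receptor FPKM to 0.958 to 1.31%, while Tgfbr2 went from 27.6 to 30.1% to 35.0 to 35.6%.

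Tgfbr3, or betaglycan, is a coreceptor that presents TGF-beta2. Its CPM was 74.4, 73.2 and 74.1 in BMSCs-OE-NC and 38.2, 35.7 and 35.4 in BMSCs-OE-FNDC5, and the log2 fold change was -1.02 ± 0.05 (adjusted p = 3.63e-09). It sits just past the 2-fold line, and with the length offset its log2 fold change was -0.27.

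The BMP receptors fell as well. Bmpr1a, a type I receptor, had 26.2, 31.2 and 28.4 CPM against 7.80, 10.5 and 9.60 CPM, a log2 fold change of -1.62 ± 0.12 (adjusted p = 2.53e-07). Bmpr2, the type II receptor best known from inherited pulmonary hypertension, had 22.1, 21.6 and 21.3 CPM against 4.37, 4.50 and 6.09 CPM, a log2 fold change of -2.12 ± 0.13 (adjusted p = 6.84e-08). Neither gene's groups came near each other. Both were still more than 2-fold lower with the length offset, at -1.33 and -1.68.

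Acvr2a, a type II receptor for activins, had 8.15, 6.43 and 7.22 CPM in BMSCs-OE-NC and 2.18, 2.59 and 3.11 CPM in BMSCs-OE-FNDC5, with a log2 fold change of -1.46 ± 0.18 (adjusted p = 2.07e-05). With the length offset Acvr2a was at -0.92, inside a 2-fold change. Its relative Acvr2b had 2.06, 2.39 and 2.22 CPM against 2.78, 2.05 and 2.38 CPM, and the groups overlapped (log2 fold change 0.11 ± 0.21, adjusted p = 0.651). Acvr1, a type I receptor of the BMP branch, fell by 0.96 on the log2 scale. Acvr1b, the type I receptor for activin, fell by 0.52, a change that was not seen with the length offset (0.03).

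**Figure D3:**
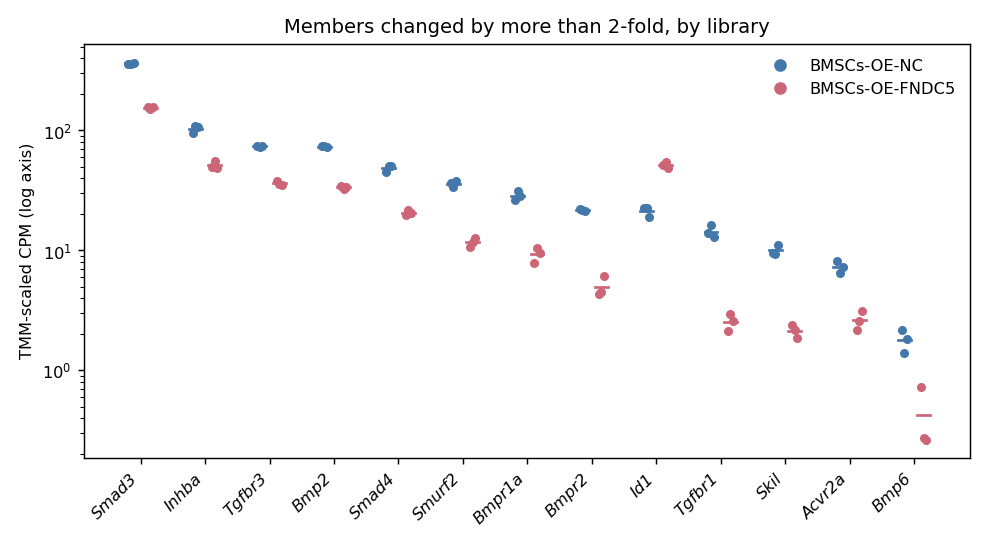
TMM-scaled CPM (log axis) in each library for the 13 genes that passed the test with more than a 2-fold change. Points are libraries, bars the mean of 3, blue BMSCs-OE-NC and red BMSCs-OE-FNDC5. Id1, at 19.1 to 22.7 CPM in BMSCs-OE-NC, against 48.6 to 54.4 CPM in BMSCs-OE-FNDC5, is the only one of these 13 that is higher.

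All 7 Smads were lower, against 38.8% of all genes, with log2 fold changes from -1.24 to -0.43 and a median of -0.82. They were lower with scaling by total counts only and with the length offset as well. The summed Smad FPKM was 168.8 to 177.1 in BMSCs-OE-NC, against 88.1 to 91.1 in BMSCs-OE-FNDC5.

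Smad3, which carries the TGF-beta and activin signal, was the most abundant Smad per length, at 70.8 ± 0.460 and 30.8 ± 0.543 FPKM (n = 3 each). Its CPM was 361, 360.3 and 366 in BMSCs-OE-NC and 156, 152 and 157 in BMSCs-OE-FNDC5, and the log2 fold change was -1.22 ± 0.03 (adjusted p = 1.97e-11). Smad4, the shared partner, had 44.7, 50.6 and 50.9 CPM against 19.7, 21.7 and 20.6 CPM, a log2 fold change of -1.24 ± 0.07 (adjusted p = 2.8e-08). These were the Smads past a 2-fold change, and with the length offset Smad3 came to -0.60 and Smad4 to -1.27.

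Smad2, the close relative of Smad3, was also lower, at 23.0 ± 0.668 and 17.0 ± 0.311 CPM (log2 fold change -0.43). Within a library, the log2 ratio of Smad3 to Smad2 counts does not depend on how libraries are scaled, though the genes differ in length (5037 and 2902 bases). It was 3.98 ± 0.032 in BMSCs-OE-NC and 3.19 ± 0.040 in BMSCs-OE-FNDC5, a difference of -0.79 with no overlap (two-sided exact permutation test, p = 0.1, the smallest that 3 against 3 allows, 0.125 adjusted over 5 ratios). With the length offset, the log2 fold changes were -0.60 for Smad3 and -0.20 for Smad2.

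The BMP Smads, Smad1 and Smad5, were lower by 0.60 and 0.82 on the log2 scale. Of the inhibitory Smads, Smad6, which acts on the BMP branch, was at 28.6 ± 1.87 and 16.8 ± 1.04 CPM (log2 fold change -0.77). Smad7, which blocks the receptors and is induced by TGF-beta, was at 111 ± 5.82 and 62.6 ± 3.25 CPM (log2 fold change -0.82). The log2 ratio of Smad7 to Smad3 went from -1.71 ± 0.073 to -1.31 ± 0.076, a difference of 0.40 with no overlap (exact permutation p = 0.1, adjusted 0.125). These genes are 4295 and 5037 bases long, and with the length offset their log2 fold changes were -0.31 and -0.60.

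The secreted antagonists split. Of 4 tested, Grem1 and Fstl1 were lower (50%, against 38.8% of all genes), and Fst and Fstl3 were higher (50%, against 36.9%). Grem1, encoding gremlin, which binds BMP2 and BMP4, had the highest FPKM of all 42 genes, at 758 ± 8.81 in BMSCs-OE-NC and 423 ± 6.36 in BMSCs-OE-FNDC5. Its CPM was 2963, 2895 and 2953 against 1592, 1601 and 1635, a log2 fold change of -0.87 ± 0.02 (adjusted p = 1.51e-11). The most abundant antagonist was thus lower in every BMSCs-OE-FNDC5 library, as was Fstl1, a secreted glycoprotein of stromal cells, at 1519 ± 10.3 and 819 ± 19.5 CPM.

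Fst encodes follistatin, which binds and neutralises activin. It was at 122 ± 6.61 and 184 ± 1.64 CPM (n = 3 each), a log2 fold change of 0.59 ± 0.04 (adjusted p = 1.19e-07), and kept this direction at 0.22 with total counts only and 0.19 with the length offset. With its ligand gene Inhba lower, the log2 ratio of Fst to Inhba went from 0.24 ± 0.060 to 1.85 ± 0.097, a difference of 1.61 (exact permutation p = 0.1, adjusted 0.125). The groups did not overlap, with 0.174 to 0.293 in BMSCs-OE-NC, against 1.74 to 1.93 in BMSCs-OE-FNDC5. These genes differ in length (1096 and 2554 bases), and with the length offset the log2 fold changes were 0.19 for Fst and -0.89 for Inhba. Fstl3, a relative of follistatin, was at 5.90 ± 0.419 and 8.34 ± 2.42 CPM (log2 fold change 0.50 ± 0.19, adjusted p = 0.0348). BMSCs-OE-FNDC5 replicate 1 held the highest Fstl3 value, 11.1 CPM, and without this library the log2 fold change was 0.24 (adjusted p = 0.193). Leaving out any one BMSCs-OE-NC library also ended this call, with adjusted p = 0.106, 0.0862 and 0.0561 without replicates 1, 2 and 3. Nog, encoding the BMP antagonist noggin, had 0 counts in all 6 libraries.

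All 5 ubiquitin ligases and corepressors were lower, against 38.8% of all genes, with a median log2 fold change of -0.79. Skil, encoding SnoN, a corepressor that holds Smads inactive, had 9.58, 9.27 and 11.2 CPM in BMSCs-OE-NC and 2.38, 2.18 and 1.85 CPM in BMSCs-OE-FNDC5, and the log2 fold change was -2.22 ± 0.16 (adjusted p = 2.44e-07). Smurf2, a ubiquitin ligase that marks receptors and Smads for degradation, had 36.5, 33.6 and 38.3 CPM against 10.6, 11.7 and 12.8 CPM, a log2 fold change of -1.63 ± 0.09 (adjusted p = 2.38e-08). The groups of both genes lay far apart, and with the length offset Skil was at -2.10 and Smurf2 at -1.08.

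Tgif1, a homeobox corepressor, had the highest FPKM of these 5, at 73.7 ± 0.990 and 65.4 ± 2.94. Its CPM was 105, 102 and 104 against 86.6, 90.2 and 94.6, a log2 fold change of -0.20 ± 0.04 (adjusted p = 0.000869). Ski, the relative of Skil, was lower by 0.79 on the log2 scale. Smurf1, the ligase related to Smurf2, was lower by 0.49 with TMM scaling but higher by 0.15 with the length offset.

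The Id genes encode inhibitors of basic helix-loop-helix factors and their median log2 fold change was 0.33. Under TMM scaling, 2 of 3 tested were higher (66.7%, against 36.9% of all genes), of which Id3 was not higher with total counts only or the length offset. Id1 (chromosome 3, 148215540 to 148216718, plus strand, in the table's own build) had 22.7, 22.7 and 19.1 CPM in BMSCs-OE-NC and 51.6, 54.4 and 48.6 CPM in BMSCs-OE-FNDC5. It was 2.39-fold higher, a log2 fold change of 1.26 ± 0.08 (adjusted p = 4.6e-08), and stayed higher with total counts only (0.89) and with the length offset (0.81). Id1 is the shortest of the tested members, at 958 bases.

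Id3 was the most abundant Id gene per length, at 279 ± 2.26 and 357 ± 10.8 FPKM. Its CPM was 287, 287 and 284 against 353, 352 and 371, a log2 fold change of 0.33 ± 0.03 (adjusted p = 1.29e-06), which turned to -0.04 with total counts only and to -0.11 with the length offset. Id2 had 2.36, 1.99 and 1.67 CPM against 2.58, 2.32 and 2.32 CPM, with overlapping groups and a log2 fold change of 0.26 ± 0.22 (adjusted p = 0.306). Id1 rose from 6.58 to 7.65% of the summed Id FPKM to 12.1 to 13.9%, and Id3 went from 91.8 to 93.0% to 85.7 to 87.5%. Id4 had at most 5 counts in any library and was not tested.

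**Figure D4:**
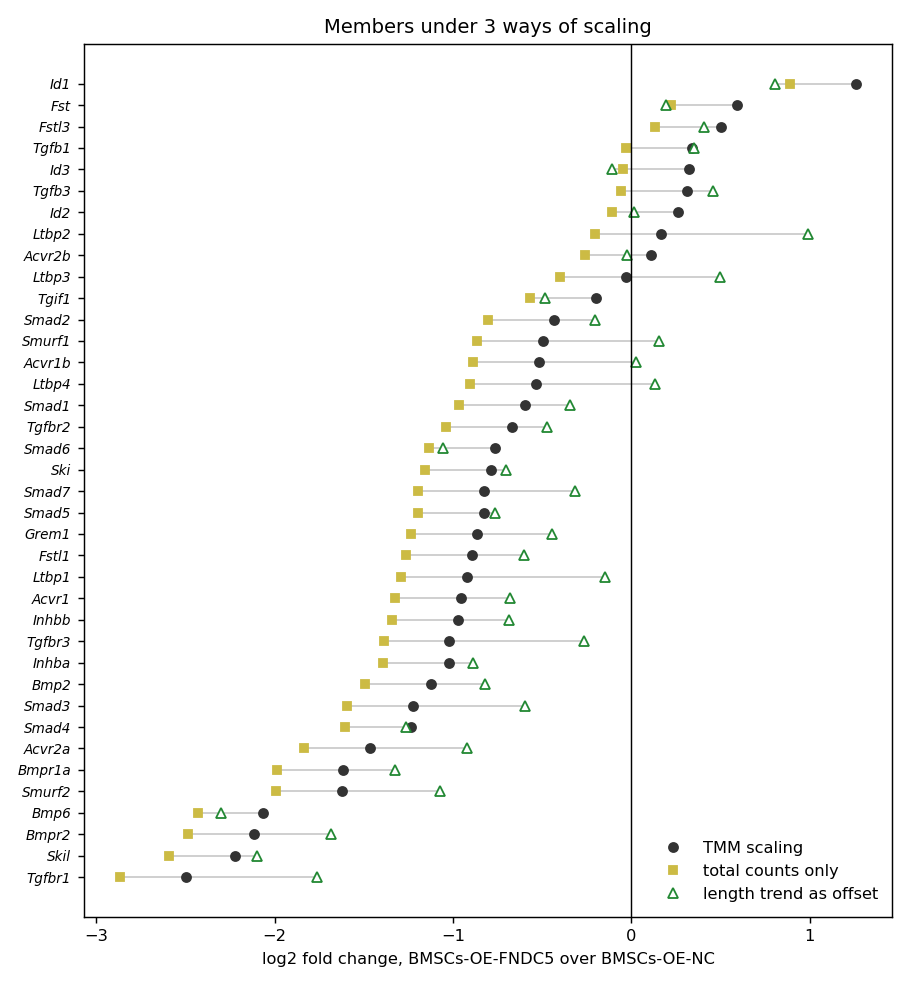
Log2 fold changes (BMSCs-OE-FNDC5 relative to BMSCs-OE-NC) of the 38 tested genes with TMM scaling (black circles), total counts only (yellow squares) and the length trend of every library as an offset (green triangles). Id1 is above 0 in all 3, at 1.26, 0.89 and 0.81, and Tgfbr1 is lowest with TMM scaling and with total counts only.

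Beyond the 42 genes, 6 lists of other pathway genes held 111 genes in the table, of which 72 were tested. In these lists 21 genes were higher and 34 were lower, against 36.9% and 38.8% of all genes (29.2% and 47.2% of the lists). With the length offset, 29 were higher and 25 lower, against 38.2% and 33.5% of all genes. With total counts only, 12 were higher and 47 lower, against 22% and 55.4% of all genes. Past a 2-fold change with TMM scaling, 5 were higher (6.94%, against 9.84% of all genes) and 19 lower (26.4%, against 17.5%). The median log2 fold change was -0.17 with TMM scaling and -0.0029 with the length offset. Of the 5 tested in the list of other ligands, which includes the protease gene Bmp1, 2 were lower (40%) and none higher. Of 5 other receptors and coreceptors, 2 were lower and 2 higher (40% each).

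Outside the cell, 7 of 15 genes for storage, activation and antagonism were lower (46.7%, against 38.8% of all genes) and 5 were higher (33.3%, against 36.9%), shares near those of all genes. By more than 2-fold, 5 were lower (33.3%, against 17.5%) and 0 higher (against 9.84%). Thbs1, encoding thrombospondin-1, an activator of latent TGF-beta, was at 1419 ± 62.2 and 513 ± 11.7 CPM (n = 3 each, log2 fold change -1.47). Tll1, a protease that cleaves the BMP antagonist chordin, was at 72.9 ± 1.82 and 13.4 ± 0.505 CPM (log2 fold change -2.44). Fbn1, the fibrillin that anchors latent complexes, was lower by 1.10 on the log2 scale, and by 0.07 with the length offset. Thbs1 and Tll1 were still more than 2-fold lower with that offset, at -1.07 and -1.86.

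Of 23 other intracellular mediators, 13 were lower (56.5%, against 38.8% of all genes) and 5 were higher (21.7%, against 36.9%). By more than 2-fold, 10 were lower (43.5%, against 17.5%). Sptbn1, a spectrin that acts as a Smad adaptor, was at 266 ± 12.1 and 109 ± 0.904 CPM (log2 fold change -1.28). Usp9x, a deubiquitinase for Smad4, and Tab2, an adaptor of the TAK1 kinase, had log2 fold changes of -1.78 and -1.18. With the length offset these 3 were at -0.40, -0.65 and -0.62.

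Of 17 genes known as targets of TGF-beta, 6 were higher (35.3%, against 36.9% of all genes) and 8 lower (47.1%, against 38.8%), shares near those of all genes. By more than 2-fold, 3 were higher (17.6%, against 9.84%) and 1 lower (5.88%, against 17.5%). Tgfbi, a matrix protein named for its induction by TGF-beta, had 18.8, 21.1 and 22.0 CPM in BMSCs-OE-NC and 161, 159.5 and 163 CPM in BMSCs-OE-FNDC5, and the log2 fold change was 2.97 ± 0.05 (adjusted p = 3.32e-12). The smooth muscle genes Acta2 and Tagln were higher too, at 1.54 ± 0.10 and 1.12 ± 0.03. Il11, a cytokine, went the other way, with 179, 184 and 183 CPM against 31.9, 32.5 and 30.5 CPM and a log2 fold change of -2.52 ± 0.04 (adjusted p = 1.31e-12). All 4 genes kept their direction with total counts only and with the length offset.

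Of 7 tested BMP targets, 3 were higher (42.9%) and 2 lower (28.6%), against 36.9% and 38.8% of all genes. Dlx3, a homeobox gene of bone and skin, had 5.91 ± 0.467 and 16.5 ± 1.18 CPM (log2 fold change 1.48). Sox9, the regulator of cartilage formation, had 31.4 ± 2.70 and 14.9 ± 3.55 CPM (log2 fold change -1.08). Both kept their direction with total counts only and with the length offset.

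**Figure D5:**
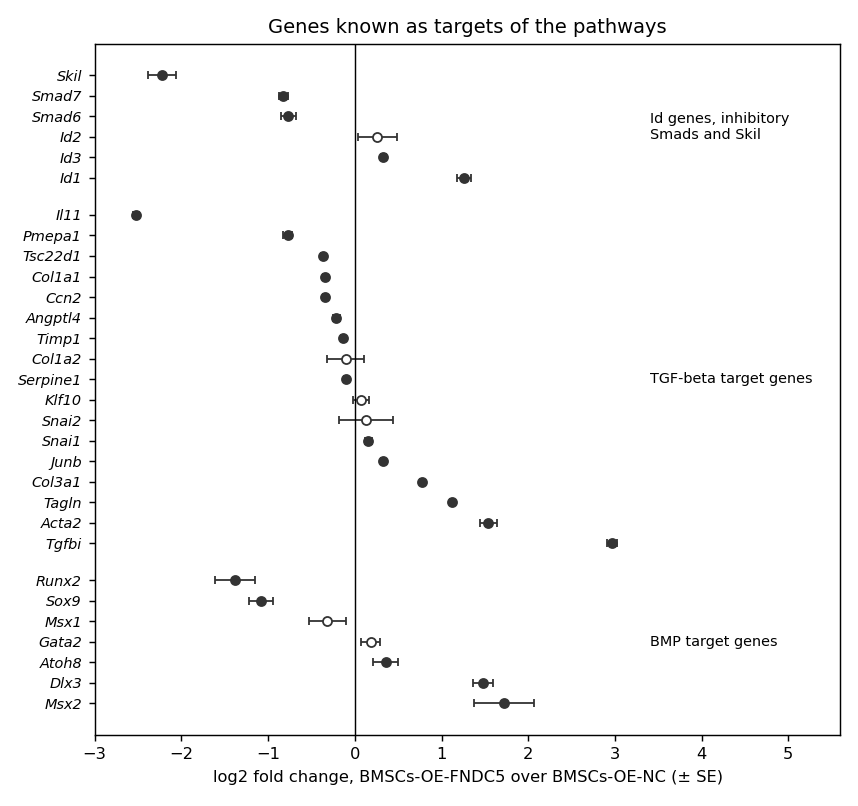
Log2 fold changes (BMSCs-OE-FNDC5 relative to BMSCs-OE-NC) of genes known as targets of the pathways, in 3 blocks. These are the Id genes with the inhibitory Smads and Skil, other TGF-beta targets and other BMP targets. Bars give 1 SE, filled circles had an adjusted p under 0.05 and open circles a larger one. Tgfbi lies at 2.97 and Il11 at -2.52.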

How the data were processed

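The authors deposited 2 tables, one of gene counts and one of FPKM values. Per the labels, their notes list the aligners HISAT2 2.1.0, TopHat2 and Bowtie2 2.2.3, the counter HTSeq 0.6.0, CASAVA and DESeq2, in no stated order, and their libraries were made with a TruSeq RNA kit. They list a mouse genome build although the gene identifiers are rat, and the extract text names retinas although source and cell type give bone marrow. The build of the table's positions and the strand setting of the counting are not given in the sources used here. Every sample column was matched to a library by its label, and 0 were left unmatched.

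The deposited counts were fitted with edgeR 4.0.16 in R 4.3.3 (filterByExpr at a minimum count of 10 and a minimum total of 15, TMM scaling, glmQLFit and glmQLFTest, no term but condition). Adjusted p-values are Benjamini-Hochberg values over all tested genes, with a threshold of 0.05, and 2-fold means an absolute log2 fold change over 1. The SE is the absolute log2 fold change divided by the square root of F. Deposited FPKM values were used for levels per length and shares. Ratios were taken from counts with a pseudocount of 0.5 and compared by exact permutation in scipy 1.17.1. The ratio of Grem1 to Bmp4 was not computed, since Bmp4 was at 0. The edgeR fit, with and without the length offset, and the limma-voom fit were tested on simulated data, the other alternatives were not. In the simulation few genes changed and no length trend was present. It therefore could not check the assumption of TMM or the length offset under the conditions of these data.

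The members and gene lists were chosen with earlier results of these data known, and so was the length offset (lowess, span 0.3). Values in every library are given for members past both thresholds, for the member with the highest FPKM of each role and for the member with the most counts that did not pass. Of other pathway genes, up to 3 per direction and list with the smallest p are named, if they passed both thresholds with a mean of at least 10 CPM. Alternatives used DESeq2 1.42.0, limma 3.58.1, other scalings and filters, FPKM with a pseudocount of 1 or 0.1, a replicate block and leaving out each library.

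Precision of counts comes from totals of 16640635 to 17965722 per library. Markers of erythroid cells, epithelium and adipocytes summed to at most 2.91, 4.31 and 0.397 CPM in any library. Osteoblast markers, nearly all Spp1, summed to 190.3 to 204.6 CPM in BMSCs-OE-NC and 132 to 134.1 CPM in BMSCs-OE-FNDC5, and chondrocyte markers to 191.8 to 206.9 and 348.7 to 364.6 CPM. The chondrocyte sum was mostly Acan, with means of 167 and 342 CPM in the same order. Sox9, the other chondrocyte marker tested, was lower, at 31.4 and 14.9 CPM. Promoters are from RefSeq (GRCr8), which gave none here for Acvr1, Tgif1, Bmp2, Smurf1, Smad6 and Fst.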

Additional observations from a re-analysis of the deposited data

How the results depend on the processing

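Of 38 tested members, 26 kept their direction and their side of the threshold under all 17 alternatives, and Bmp6 did so under the 16 that gave it a value. With total counts only, 2 members were higher and 30 lower, 0 were higher and 22 lower by more than 2-fold, the members' median was -1.18, 12 other pathway genes were higher and 47 lower, and the log2 fold change reversed for Tgfb1 (-0.029), Tgfb3 (-0.059), Ltbp2 (-0.20), Acvr2b (-0.26), Id2 (-0.11) and Id3 (-0.044). With the length offset, 0 members were higher by more than 2-fold, the median was -0.46, 29 other pathway genes were higher and 25 lower, and the sign turned for Ltbp3 (0.50), Ltbp4 (0.13), Acvr1b (0.028), Acvr2b (-0.023), Smurf1 (0.15) and Id3 (-0.11). The median was -0.91 with upper-quartile scaling and -0.71 with log2(FPKM + 1). Upper-quartile scaling also ended the call of Tgfb3 (adjusted p = 0.0651) and called Ltbp3 lower, as did a filter of 10 counts in every library. The cause of these changes was not tested beyond what each scaling changes by construction.

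Without 1 library, counts of members ranged from 6 to 7 higher, 28 lower, 1 higher and 11 to 13 lower by more than 2-fold, with 18 to 19 other pathway genes higher and 33 to 36 lower and a median of -0.83 to -0.78. Acvr2b ranged from -0.0032, without BMSCs-OE-FNDC5 replicate 1, to 0.217, and the log2 ratio of Tgfb3 to Tgfb1 ranged from -0.063 to 0.010, against -0.030 with all libraries (overlapping groups, exact permutation p = 0.7). The ratio of Tgfb2 to Tgfb1 differed by -1.94 and ranged from -2.71 to -0.853, since it rests on at most 10 Tgfb2 counts per library, with -0.853 when BMSCs-OE-FNDC5 replicate 1, which had 0, was left out.

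Replicates with the same number did not deviate together (correlations of 0.022, -0.0086 and -0.0055). These values gave no sign of pairing by number, but cannot exclude it, since deviations that are mostly noise would give them too. With the replicate block, 6 members were higher and 28 lower, as Fstl3 no longer passed (adjusted p = 0.0514). Fstl3 also failed with upper-quartile scaling, total counts only, the length offset and both FPKM fits, with adjusted p from 0.0523 to 0.55. Depth limits Bmp4, Nog, Tgfb2 and Id4 most, since these had 0 to 10 counts per library.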
